A study of Mus musculus with 84 samples.

Results

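The 39 genes described here are type I interferon response genes of the mouse. They were named by gene symbol, with no measured value in the rule, and all 39 were found among the 49671 gene identifiers of the count tables. All 39 passed the low-count filter over the 84 libraries together, and all but Oas3 passed it among the libraries of day 60.

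The genes were read in bulk RNA sequencing of microglia, the resident macrophages of the brain, which were sorted by FACS from mice with a severe traumatic brain injury and from uninjured mice. Per the design text, the study depleted peripheral monocytes and followed microglial gene expression at 1, 7, 14, 30 and 60 days. Depletion used liposomes loaded with clodronate, a bisphosphonate toxic to the phagocytes that engulf it.

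Each day had 4 groups: injury with clodronate liposomes (clodronate), injury with PBS liposomes (vehicle), injury with no liposomes (injury only), and no injury and no treatment (uninjured; sample titles say sham and other labels naive). Day 1 had 6 clodronate, 4 vehicle, 5 injury-only and 5 uninjured libraries. Day 7 had 5 clodronate, 4 vehicle, 5 injury-only and 4 uninjured libraries, and day 14 had 5, 5, 3 and 3 in that order. Day 30 had 4 libraries in each group, and day 60 had 4 clodronate, 4 vehicle, 3 injury-only and 3 uninjured libraries. Library names carry a year, and all day 60 libraries were of a later year than those of any other day. At day 1, 3 clodronate and 2 vehicle libraries were of a later year than all others of that day. At day 14 clodronate and vehicle libraries were of one year and injury-only and uninjured libraries of another, so only groups of the same year were compared there. Strain, age, sex, liposome schedule and sorting gate were not known here. No label says that the libraries of a group came from separate mice, so p-values measure the spread between libraries, which may be technical.

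Type I interferons signal through a receptor with the chains IFNAR1 and IFNAR2, which activates STAT proteins. STAT2 and IRF9 are parts of the complex ISGF3, which binds the interferon-stimulated response element (ISRE) in promoters and induces a large set of antiviral genes. In the brain, microglia with raised interferon-induced genes are known from injury, infection and ageing. In a sorted bulk sample, more cells of a type and more RNA per cell cannot be told apart.

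A library held 11145687 to 16035926 gene counts at day 1, 1134078 to 15375096 at day 7, 8681681 to 18654785 at day 14, 9936026 to 16480776 at day 30, and 1109856 to 12306417 at day 60. Vehicle library 4 of day 7 was the shallow one of its day (1134078 counts, where the next held 8908746). It also had 54.62% of reads uniquely aligned, against a median of 89.185% on that day. Reads with no feature were 22.4% of its counts, against a median of 5.185%. At day 60 injury-only libraries held 8431455 to 12306417 counts and uninjured libraries 2930843 to 3739798. Uninjured library 3 of day 14 stood apart from its label: its 10 microglial markers summed to 4440.0 CPM (each count relative to its library's total, as scaled by edgeR's TMM method), against 29170.0 CPM or more in every other library of that day. Its 11 monocyte markers summed to 8150.0 CPM and its 8 neutrophil markers to 9989 CPM. Results at day 14 are given with and without this library. Clodronate library 1 and vehicle library 1 of day 14 also stood apart from the rest of their groups. The microglial marker P2ry12 was at 4232, 969.6, 1123, 1117 and 906 CPM in clodronate libraries 1 to 5 and 1032, 3417, 2960.0, 3028 and 2647 CPM in vehicle libraries 1 to 5, and the monocyte markers summed to 47.1, 552, 889, 909 and 1543 CPM in clodronate and 576, 109, 146, 108 and 83.4 CPM in vehicle libraries. On both measures vehicle library 1 lay within the range of the other 4 clodronate libraries, and clodronate library 1 was nearer to the other 4 vehicle libraries than to its own group.

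The 39 genes as a group were higher after injury at day 1, higher still at day 7, and close to uninjured values at days 30 and 60. The module mean, the mean over the 39 genes of log2 CPM with a prior count of 2, describes each library by 1 value. At day 1 it was 4.30, 4.00, 4.29, 4.28 and 3.72 in injury-only libraries and 3.53, 3.56, 3.52, 3.58 and 3.66 in uninjured libraries. At day 7 it was 5.03, 5.46, 5.22, 5.27 and 5.21 in injury-only libraries and 3.49, 3.46, 3.60 and 3.61 in uninjured libraries. On both days every injury-only library was above every uninjured one, and the gap between the means was 1.70 log2 units at day 7 and 0.55 at day 1. The 39 genes together took 0.304% ± 0.0393 of gene counts in injury-only and 0.0927% ± 0.00303 in uninjured libraries of day 7 (SD, n = 5 and 4). At day 30 the module mean averaged 3.76 ± 0.10 in injury-only and 3.50 ± 0.24 in uninjured libraries (SD, n = 4 each), and at day 60 it averaged 3.36 ± 0.28 in injury-only and 3.46 ± 0.38 in uninjured libraries (SD, n = 3 each). At day 14 it was 4.92, 4.70 and 5.22 in injury-only libraries and 5.26, 3.28 and 5.96 in uninjured libraries, which lay on both sides of the injured range.

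**Figure D1:**
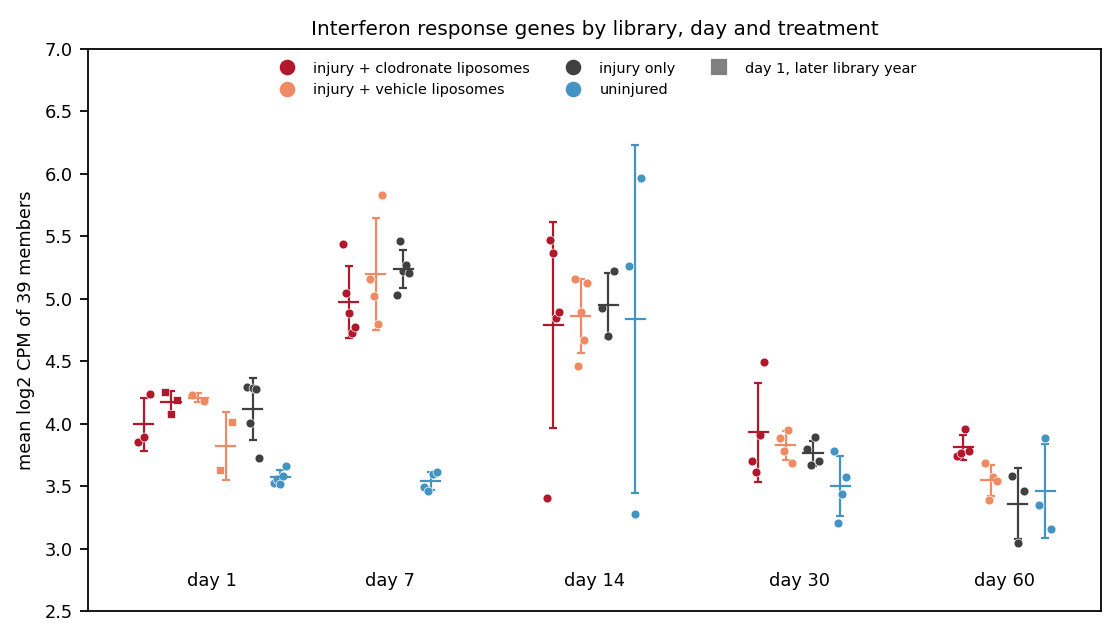
Mean log2 CPM of the 39 interferon response genes in each of the 84 libraries, by day after injury and, within a day, by treatment (clodronate, vehicle, injury only, uninjured, left to right; day 1 clodronate and vehicle split by library year). Points are libraries, lines group means and bars SD. The 5 injury-only libraries of day 7 lie between 5.03 and 5.46 and the 4 uninjured ones between 3.46 and 3.61, while the uninjured libraries of day 14 spread from 3.28 to 5.96.

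Promoters are shown because ISGF3 acts through the ISRE and most of the 39 genes rose at day 7. RefSeq windows on GRCm38.p6, 250 bases before to 50 after the start site, were at hand for 29 of the 39 genes. The ISRE core (GAAA, any 2 bases, GAAA, on either strand) stood in the window of 18 of these 29 genes (62.1%), against 1079 of all 27025 genes with a window (3.99%). Of the 18 genes with it, 14 were called higher at day 7 by the test described below, with a median log2 fold change of 1.51. Of the 11 genes without it, 10 were called higher, with a median of 1.73. A match is a run of letters in this window and no measured binding site.

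For the patterns described below, 6 members are printed, each with the 200 bases before its start site, read 5′ to 3′ on the strand of the gene with ISRE core matches in capitals. Isg15 (chr4:156200819-156201018, minus strand) has 3 overlapping matches and Ifit1 (chr19:34640689-34640888, plus strand) has 2, which read on the opposite strand. Oas1a (chr5:120907526-120907725, minus strand) has 2 overlapping matches, the nearest of them 14 bases before the start site. Rsad2 (chr12:26456453-26456652, minus strand) has 1 match and had the largest fold change of the members at day 1. Gbp7 (chr3:142530136-142530335, plus strand) has 1 match and was higher at day 1 but not at day 7. Lgals3bp (chr11:118401960-118402159, minus strand) has none and had the smallest adjusted p at day 7.
Isg15: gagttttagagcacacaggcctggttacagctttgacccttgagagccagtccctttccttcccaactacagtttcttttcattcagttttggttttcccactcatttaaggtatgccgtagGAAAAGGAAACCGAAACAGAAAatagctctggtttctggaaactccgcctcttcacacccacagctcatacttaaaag
Ifit1: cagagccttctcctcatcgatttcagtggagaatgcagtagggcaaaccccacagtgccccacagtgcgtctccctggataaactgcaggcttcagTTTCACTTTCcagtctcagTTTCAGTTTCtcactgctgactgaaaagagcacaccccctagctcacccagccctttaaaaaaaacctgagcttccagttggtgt
Oas1a: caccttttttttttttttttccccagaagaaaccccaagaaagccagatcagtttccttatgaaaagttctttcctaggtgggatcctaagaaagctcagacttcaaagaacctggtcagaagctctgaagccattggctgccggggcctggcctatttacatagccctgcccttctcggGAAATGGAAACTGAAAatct
Rsad2: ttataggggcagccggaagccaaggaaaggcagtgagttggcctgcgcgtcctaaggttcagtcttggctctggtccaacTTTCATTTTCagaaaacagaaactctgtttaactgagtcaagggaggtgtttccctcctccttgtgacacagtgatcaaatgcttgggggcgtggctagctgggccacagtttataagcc
Gbp7: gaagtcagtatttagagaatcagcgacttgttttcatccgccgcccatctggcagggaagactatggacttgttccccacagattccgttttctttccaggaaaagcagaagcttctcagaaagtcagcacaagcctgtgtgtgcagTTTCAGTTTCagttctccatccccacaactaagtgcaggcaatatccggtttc
Lgals3bp: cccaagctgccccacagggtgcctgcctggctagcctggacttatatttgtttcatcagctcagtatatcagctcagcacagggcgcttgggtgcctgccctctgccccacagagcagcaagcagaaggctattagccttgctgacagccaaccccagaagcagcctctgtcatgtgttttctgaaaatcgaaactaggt

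At day 1, 16 of the 39 genes rose and 2 fell in injury-only against uninjured microglia. A gene was called at an adjusted p under 0.05 in edgeR's quasi-likelihood test, with Benjamini-Hochberg adjustment over all 14516 genes tested on that day; adjusted p-values below are those of this test, and log2 fold changes are given ± SE. Of all genes 18.5% were called higher and 15.3% lower. The median log2 fold change was 0.46 over the members and 0.0048 over all genes tested. In 11 members every injury-only library was above every uninjured one, against 14.9% of all genes, and in 0 members every one was below, against 11.2%. The genes that rose included Isg15 and its protease Usp18, part of the IFIT and OAS families, DNA sensors, membrane proteins and viperin, and each role class kept members that were not called.

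Among the regulators, Irf7, the transcription factor that amplifies interferon production, had 41.1, 33.01, 41.1, 23.5 and 17.2 CPM in injury-only libraries of day 1, against 16.6, 17.2, 13.02, 11.9 and 17.2 CPM in uninjured libraries (log2 fold change 1.01 ± 0.22, adjusted p = 0.00111). One injured library was within the uninjured range. Isg15, a ubiquitin-like protein attached to other proteins, had 16.5, 13.5, 18.9, 12.4 and 7.33 CPM in injury-only libraries, against 5.82, 5.29, 5.71, 4.400 and 5.08 CPM in uninjured libraries (1.35 ± 0.28, adjusted p = 6.02e-04). The groups did not overlap. Usp18, the protease that removes ISG15 and dampens receptor signalling, also rose (0.95 ± 0.23, adjusted p = 0.00238), and Herc6, the main ligase for ISG15 in the mouse, was not called (-0.48 ± 0.19, adjusted p = 0.0555). Irf9 and Stat2 had log2 fold changes of -0.12 ± 0.09 and 0.18 ± 0.15.

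Ifit1, an inhibitor of the translation of viral RNA, had 13.2, 9.61, 13.3, 12.2 and 9.38 CPM in injury-only libraries of day 1, against 2.95, 3.98, 3.57, 2.800 and 7.24 CPM in uninjured libraries (1.47 ± 0.30, adjusted p = 5.23e-04). Ifit3 of the same family had 21.3, 18.6, 25.6, 20.2 and 13.01 CPM in injury-only libraries, against 9.36, 9.05, 7.404, 9.36 and 9.22 CPM in uninjured libraries (1.13 ± 0.17, adjusted p = 2.38e-05). Both genes were higher in every injured library than in any uninjured one, and Ifit2 (0.36 ± 0.21) and Ifit3b (0.56 ± 0.36) were not called. Oas1a, which makes the oligoadenylates that activate RNase L, had 20.1, 12.4, 17.4, 18.2 and 9.18 CPM in injury-only libraries, against 7.59, 7.68, 7.404, 8.399 and 6.29 CPM in uninjured libraries (1.02 ± 0.19, adjusted p = 2.26e-04). It was the only one of 4 OAS family members called at day 1. Ifit3 shared 51.2% of its transcript's runs of 50 bases with Ifit3b, and Oas1a 57.6% with Oas1g. The values of these copies are uncertain where reads match both.

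Among the sensors, Ifi204, a DNA-binding protein related to human IFI16, had 44.5, 37.3, 35.2, 40.3 and 30.3 CPM in injury-only libraries of day 1, against 7.51, 9.13, 10.97, 12.6 and 12.2 CPM in uninjured libraries (1.81 ± 0.18, adjusted p = 9.49e-08). Its adjusted p was the smallest of the 39 genes on that day. Zbp1, a sensor of left-handed nucleic acids that can trigger cell death, had 9.57, 5.21, 11.9, 6.997 and 5.55 CPM in injury-only libraries, against 1.77, 2.39, 1.61, 1.76 and 1.55 CPM in uninjured libraries (2.07 ± 0.28, adjusted p = 4.67e-06). For both sensors the groups did not overlap. The RNA helicases Ifih1 (-0.05 ± 0.18) and Dhx58 (0.06 ± 0.18) and the RNA-activated kinase Eif2ak2 (-0.31 ± 0.19) were not called at day 1.

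Among membrane proteins and enzymes, Ifitm3, which blocks the fusion of viruses with endosomes, had 90.5, 73.4, 77.00, 74.1 and 62.2 CPM in injury-only libraries of day 1, against 19.3, 15.4, 21.4, 21.3 and 29.6 CPM in uninjured libraries (1.79 ± 0.18, adjusted p = 1.47e-07). Bst2 (tetherin), which holds budding viruses at the cell surface, had 125, 119, 118, 122 and 104 CPM in injury-only libraries, against 88.9, 69.8, 83.5, 81.8 and 76.8 CPM in uninjured libraries (0.52 ± 0.09, adjusted p = 1.57e-04). Neither gene's groups overlapped, though the change of Bst2 was the smaller. Rsad2 (viperin), an enzyme that makes a chain-terminating nucleotide, had 28.5, 21.9, 27.7, 23.8 and 9.73 CPM in injury-only libraries, against 4.55, 2.75, 1.16, 2.96 and 2.15 CPM in uninjured libraries (3.00 ± 0.42, adjusted p = 9.41e-06). This was the largest log2 fold change of the members at day 1. Cmpk2, a nucleotide kinase whose gene is also on chromosome 12, rose by 0.78 ± 0.25, adjusted p = 0.0158.

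Slfn2, a Schlafen gene known in T cells for keeping quiescence, had 311, 268, 327, 200.5 and 251 CPM in injury-only libraries of day 1, against 55.8, 53.3, 54.8, 53.7 and 45.3 CPM in uninjured libraries (2.34 ± 0.25, adjusted p = 3.03e-07). Lgals3bp, a secreted protein that binds galectins, had 406, 334, 403, 382 and 332 CPM in injury-only libraries, against 219, 193, 231, 189.7 and 219 CPM in uninjured libraries (0.79 ± 0.10, adjusted p = 3.96e-06). Every injured library was above every uninjured one for both genes. Mx1, a dynamin-like antiviral GTPase, rose (0.79 ± 0.29, adjusted p = 0.0382), and so did Gbp7, a guanylate-binding GTPase, with 126, 84.9, 102, 166 and 191 CPM in injury-only and 57.8, 76.3, 70.8, 85.8 and 87.3 CPM in uninjured libraries (0.80 ± 0.19, adjusted p = 0.00244). The genes that fell were Mx2, with 4.12, 1.92, 3.32, 3.39 and 1.99 CPM in injury-only and 5.91, 6.302, 7.58, 3.92 and 5.43 CPM in uninjured libraries (-1.01 ± 0.29, adjusted p = 0.00924), and Slfn8 (-0.37 ± 0.14, adjusted p = 0.0426). The groups of Gbp7, Mx2 and Slfn8 overlapped.

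At day 7, 33 of the 39 genes rose in injury-only against uninjured microglia and 0 fell. Of the 14278 genes tested 6.14% were called higher and 1.54% lower. The median log2 fold change was 1.86 over the members and -0.0028 over all genes tested, and 38 members had a fold change above 0. All IFIT, OAS and sensor genes of the list rose, as did all its membrane proteins and the TRIM, nuclear body and other induced genes. The 6 members not called were Stat2, Herc6, Gbp3, Gbp7, Parp14 and Slfn8. Every injury-only library was above every uninjured one in 32 members, against 7.89% of all genes, and below in 1, against 6.05%.

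Of the regulators, Irf7 had 64.01, 105, 113, 93.8 and 89.2 CPM in injury-only libraries of day 7, against 15.8, 10.6, 14.97 and 16.1 CPM in uninjured libraries (2.72 ± 0.32, adjusted p = 1.92e-05). Usp18 had 50.1, 70.2, 69.3, 58.9 and 67.03 CPM in injury-only libraries, against 13.8, 11.02, 18.5 and 17.1 CPM in uninjured libraries (2.09 ± 0.22, adjusted p = 5.10e-06). Neither gene had an injured library within the uninjured range. Isg15 averaged 20.2 ± 3.66 CPM in injury-only and 4.22 ± 1.24 CPM in uninjured libraries (SD, n = 5 and 4; 2.28 ± 0.31, adjusted p = 9.95e-05). Irf9, the DNA-binding subunit of ISGF3, rose little (0.51 ± 0.15, adjusted p = 0.0488), and its partner Stat2 was not called (0.65 ± 0.24, adjusted p = 0.11).

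Ifit3 had 48.3, 66.7, 76.4, 62.7 and 52.6 CPM in injury-only libraries of day 7, against 13.1, 9.69, 9.65 and 13.2 CPM in uninjured libraries (2.45 ± 0.27, adjusted p = 7.41e-06). The other IFIT genes had log2 fold changes of 2.35 ± 0.33 (Ifit1), 2.74 ± 0.35 (Ifit2) and 2.25 ± 0.37 (Ifit3b). Oas1a had 34.3, 34.98, 35.9, 37.6 and 32.8 CPM in injury-only libraries, against 6.58, 6.17, 8.44 and 7.86 CPM in uninjured libraries (2.30 ± 0.21, adjusted p = 7.73e-07). Its values were close together within each group. Oasl2, an OAS-like gene, had 48.3, 87.9, 81.7, 70.4 and 69.6 CPM in injury-only libraries, against 8.56, 14.1, 14.97 and 14.7 CPM in uninjured libraries (2.48 ± 0.26, adjusted p = 4.75e-06). Oas3 had 1.35 to 3.73 CPM in injury-only and 0.152 to 1.02 CPM in uninjured libraries (2.55 ± 0.60, adjusted p = 0.0128), and Oas2 had a log2 fold change of 1.45 ± 0.34.

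Zbp1 had 16.8, 16.2, 17.04, 16.8 and 17.4 CPM in injury-only libraries of day 7, against 1.27, 1.41, 1.14 and 1.87 CPM in uninjured libraries (3.58 ± 0.29, adjusted p = 1.65e-07). This was the largest log2 fold change of the 39 genes, and the 5 injured values were nearly equal. Ifi204 had 46.1, 60.2, 45.8, 58.6 and 39.5 CPM in injury-only libraries, against 5.704, 7.19, 10.2 and 7.18 CPM in uninjured libraries (2.75 ± 0.25, adjusted p = 7.73e-07). The RNA sensors passed the test at day 7 as well, with log2 fold changes of 1.30 ± 0.21 for Dhx58, 0.94 ± 0.20 for Eif2ak2 (PKR, which blocks translation) and 0.80 ± 0.22 for Ifih1 (MDA5).

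Mx1 had 20.9, 22.7, 19.5, 18.4 and 18.7 CPM in injury-only libraries of day 7, against 5.07, 4.298, 4.79 and 5.17 CPM in uninjured libraries (2.08 ± 0.19, adjusted p = 9.10e-07). Mx2, which was lower in injured microglia at day 1, had 9.83, 10.5, 9.91, 7.13 and 9.89 CPM in injury-only libraries, against 3.25, 3.28, 2.96 and 3.89 CPM in uninjured libraries (1.52 ± 0.24, adjusted p = 4.95e-04). The groups did not overlap for either gene, and Mx2 is annotated as a polymorphic pseudogene. Rsad2 had 15.9, 29.7, 26.6, 22.4 and 21.1 CPM in injury-only libraries, against 3.09, 2.501, 4.86 and 2.395 CPM in uninjured libraries (2.87 ± 0.31, adjusted p = 5.10e-06). Ifitm3 averaged 129.8 ± 32.7 CPM in injury-only and 23.00 ± 3.37 CPM in uninjured libraries (SD, n = 5 and 4; 2.52 ± 0.31), and Rtp4, a receptor-transporting membrane protein, rose by 2.49 ± 0.28. Gbp7 differed from these genes, with 55.4, 52.2, 46.4, 57.3 and 51.6 CPM in injury-only libraries, against 61.8, 70.9, 70.3 and 76.6 CPM in uninjured libraries. Every injured library was below every uninjured one, yet the gene was not called (-0.39 ± 0.20, adjusted p = 0.291). This depends on the fit: with the compared groups alone, 1 member was called lower at day 7 and 34 higher, against 11.5% of all genes in either direction.

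Lgals3bp had 720.0, 1122, 1044, 944 and 972 CPM in injury-only libraries of day 7, against 199, 196, 189 and 173 CPM in uninjured libraries (2.37 ± 0.18, adjusted p = 3.64e-08). Its adjusted p was the smallest of the 39 genes at day 7. In level per kilobase of exon it ranked 1 among them in injury-only microglia (337.3 CPM per kilobase) and 2 in uninjured microglia (66.5 CPM per kilobase), after Bst2. Ifi27l2a, an interferon-induced gene of the IFI27 family, had 77.9, 119, 128, 101 and 101 CPM in injury-only libraries, against 9.11, 7.58, 9.96 and 9.28 CPM in uninjured libraries (3.57 ± 0.31, adjusted p = 4.24e-07). Slfn2 had 128, 144, 176, 143 and 147 CPM in injury-only libraries, against 42.8, 46.8, 46.5 and 45.1 CPM in uninjured libraries (1.73 ± 0.15, adjusted p = 4.24e-07). Slfn5 had 28.4, 42.9, 23.3, 38.03 and 33.8 CPM in injury-only libraries, against 7.76, 8.05, 8.59 and 10.03 CPM in uninjured libraries (1.98 ± 0.20, adjusted p = 2.26e-06). In all 4 genes the lowest injured library was above the highest uninjured one. Among the other induced genes, Sp100 of the nuclear bodies rose by 1.42 ± 0.17, Xaf1, which binds the apoptosis inhibitor XIAP, by 1.58 ± 0.20, Trim30a by 0.72 ± 0.18 and Ifi44 by 1.86 ± 0.57, adjusted p = 0.0495.

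**Figure D2:**
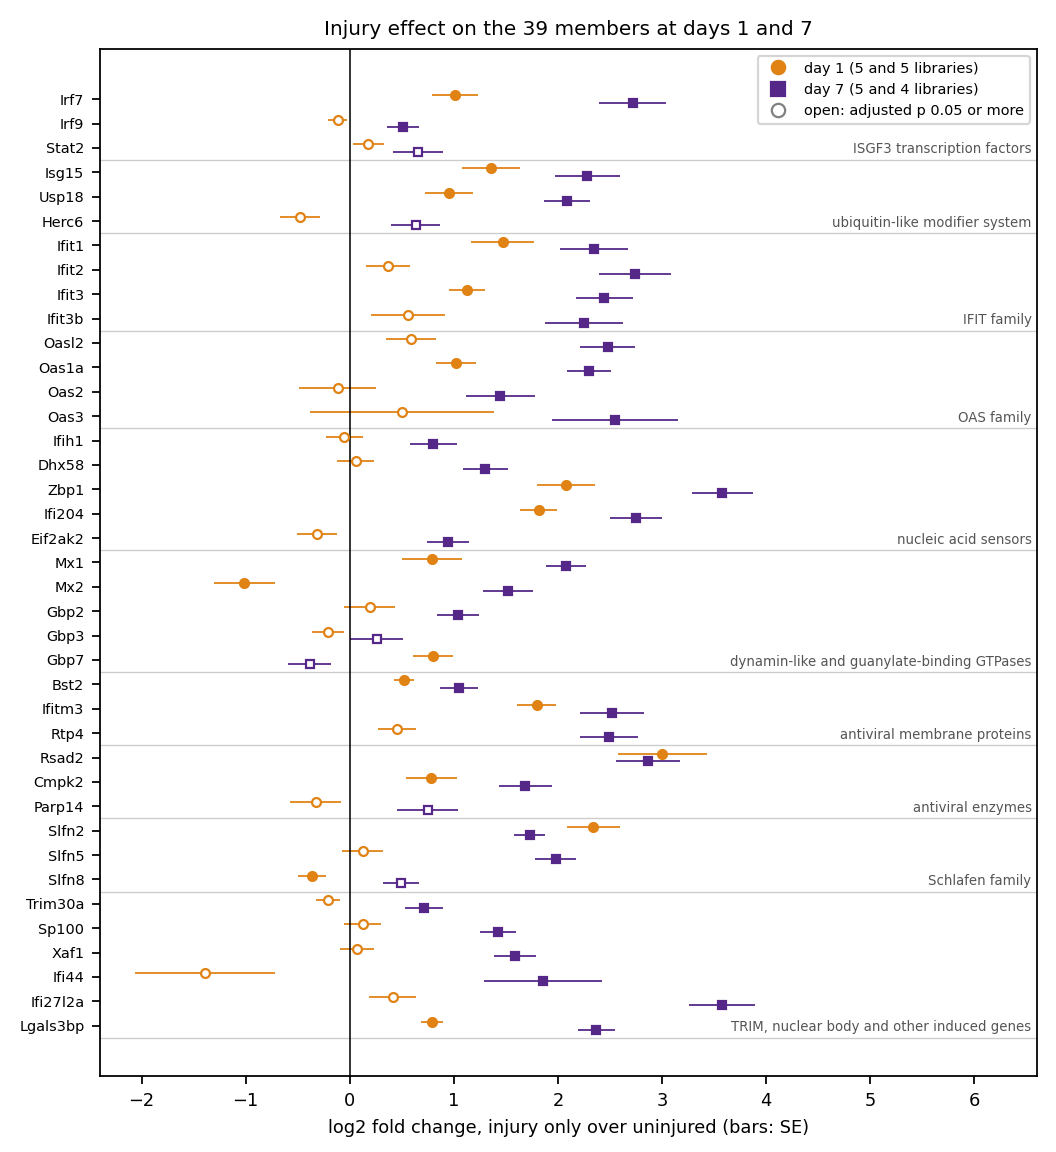
Log2 fold change of injury-only over uninjured microglia for each of the 39 genes, in rows grouped by role, at day 1 (orange circles) and day 7 (purple squares), with bars of 1 SE; filled symbols passed an adjusted p under 0.05 in edgeR's quasi-likelihood test. At day 7, 33 filled genes lie right of 0 and Gbp7 alone lies left of it, while at day 1, 16 filled genes lie right of 0 and 2 (Mx2 and Slfn8) left.

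Days 1 and 7 have no library in common. Of the 16 genes called higher at day 1, 15 (93.8%) were also called higher at day 7, which is 45.5% of the 33 of day 7. Of all 39 members 84.6% were higher at day 7, so the share among those of day 1 is close to that of the members as a whole. Over the 13631 genes tested on both days, 302 were higher on both, which is 11.6% of the 2612 of day 1 and 38.4% of the 786 of day 7. The difference of the injury effects was tested over both days: 26 of the 39 genes had a larger effect at day 7 and 1 a smaller one, against 5.51% and 6.51% of 15981 genes. Ifi27l2a differed by 3.17 ± 0.38, adjusted p = 1.19e-06, with 15.99, 13.7, 19.9, 20.1 and 13.3 CPM in injury-only and 10.3, 13.2, 13.7, 10.7 and 13.4 CPM in uninjured libraries of day 1, where its groups overlapped. The difference was 2.53 ± 0.39 for Mx2, 2.37 ± 0.41 for Ifit2, 2.04 ± 0.32 for Rtp4, 1.85 ± 0.26 for Slfn5, 1.58 ± 0.20 for Lgals3bp and 0.85 ± 0.22 for Slfn8. Gbp7 was the gene with a smaller effect at day 7 (-1.19 ± 0.29, adjusted p = 0.00486). Several genes called on both days did not pass this test, among them Isg15 (0.93 ± 0.41, adjusted p = 0.141), Ifit1 (0.88 ± 0.45, adjusted p = 0.221), Slfn2 (-0.61 ± 0.31, adjusted p = 0.218) and Rsad2 (-0.13 ± 0.54, adjusted p = 0.92).

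**Figure D3:**
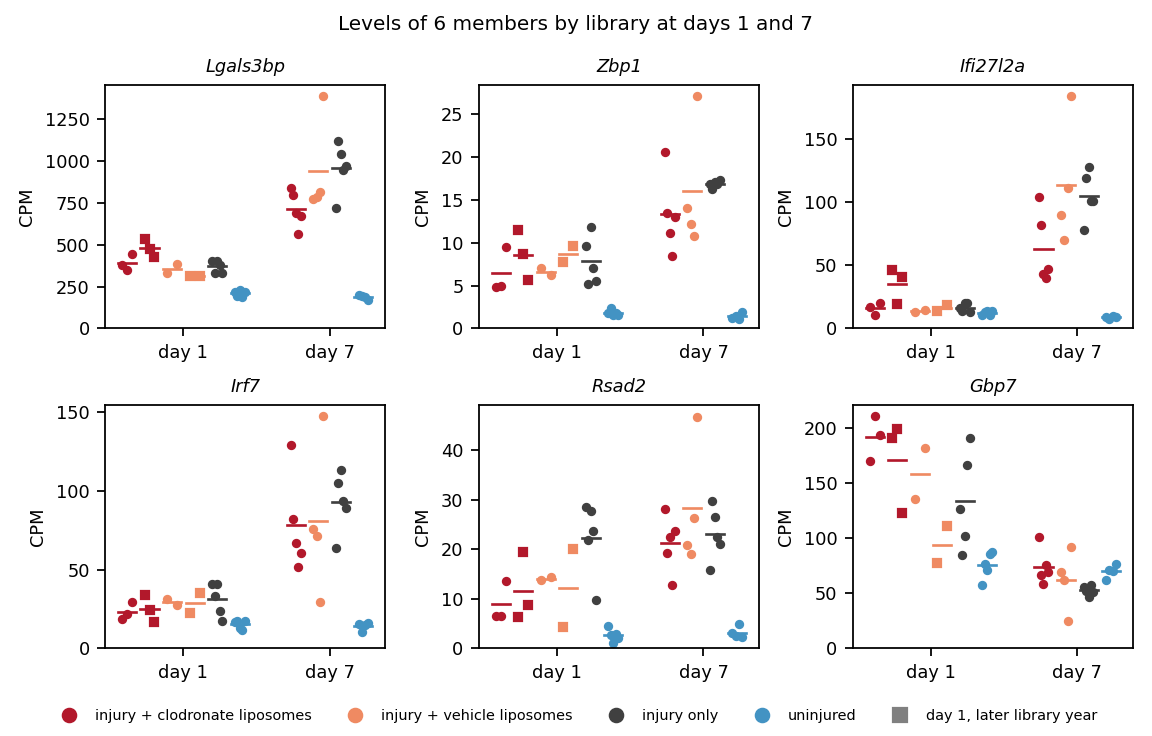
CPM (linear axis) of Lgals3bp, Zbp1, Ifi27l2a, Irf7, Rsad2 and Gbp7 in each library of days 1 and 7, in the order clodronate, vehicle, injury only, uninjured within a day; squares are day 1 libraries of the later year and lines are group means. Ifi27l2a is at 13.3 to 20.1 CPM in injury-only libraries of day 1 and 77.9 to 128.0 CPM in those of day 7, and Gbp7 is higher in injury-only libraries of day 1 than in those of day 7.

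Marker sums of the cell types went different ways with injury, some higher, some lower and some overlapping. The 10 microglial markers summed to 23250.0 to 27130.0 CPM in injury-only and 44170.0 to 49110.0 CPM in uninjured libraries of day 1, and to 32330.0 to 39340.0 CPM in injury-only and 45390.0 to 49280.0 CPM in uninjured libraries of day 7. All 10 were above 0 in these 4 groups. The 11 monocyte markers summed to 105 to 320.2 CPM in injury-only and 26.4 to 55.99 CPM in uninjured libraries of day 1, and to 57.95 to 173 CPM and 33.6 to 88.8 CPM in the same groups of day 7, with Chil3 at 0 in uninjured libraries of day 7. Ly6c2, which marks inflammatory monocytes, was at 0.3196 to 1.13 CPM in injury-only and 0 to 0.234 CPM in uninjured libraries of day 7, and Ccr2 at 7.24 to 12.5 and 7.11 to 12.7 CPM. At day 1 Ly6c2 was at 0 to 0.495 CPM in injury-only and 0 to 0.32 CPM in uninjured libraries. Ccr2 was at 4.58 to 12.7 CPM and 5.74 to 9.13 CPM in the same groups of day 1, so both genes overlapped there. Of 8 neutrophil markers 7 were above 0 in injury-only and 3 in uninjured libraries of day 1, with sums of 33.2 to 65.97 CPM and 0 to 1.18 CPM. At day 7 these were 8 and 2 markers, with sums of 1.77 to 24.9 CPM in injury-only and 0 to 0.547 CPM in uninjured libraries. The 9 endothelial and mural markers, all above 0, overlapped at day 1, with sums of 95.8 to 284 CPM in injury-only and 65.2 to 142 CPM in uninjured libraries. They summed to 296 to 391 CPM in injury-only and 128 to 199 CPM in uninjured libraries of day 7. The 8 markers of plasmacytoid dendritic cells, a known source of interferon, summed to 122 to 142 CPM and 136 to 158 CPM in these groups, with Klk1 at 0 in both. Of 10 T and NK cell markers 7 were above 0 in injury-only and 4 in uninjured libraries of day 7, with sums of 1.73 to 6.71 CPM and 2.84 to 3.19 CPM. Cd3e, Cd8a and Il2rb were at 0 in both groups, and Cd3g, Klrb1c and Nkg7 only in the uninjured one. At day 1 the T and NK cell markers summed to 0.353 to 1.27 CPM in injury-only and 1.6 to 5.48 CPM in uninjured libraries. The plasmacytoid dendritic cell markers summed to 102.3 to 116.6 CPM and 128.5 to 149.6 CPM in the same groups of day 1. Both lists were thus lower after injury on that day, without overlap. The 6 B cell markers, with Pax5 at 0, summed to 214 to 275 CPM in injury-only and 516 to 810 CPM in uninjured libraries of day 1. The 7 astrocyte markers, all above 0, summed to 111 to 146 CPM and 168 to 194 CPM in these groups of day 1. At day 7 both sums overlapped between injury-only and uninjured libraries. The part of these cells in the rise of the 39 genes was not tested.

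Around the members, 114 further genes of interferon signalling were read in the same fits. At day 1, 17 of 87 tested rose and 25 fell, with a median log2 fold change of -0.18. Of all genes 18.5% rose and 15.3% fell that day, so the share that rose was close to that of all genes. At day 7, 24 of 89 rose and 1 fell, with a median of 0.35, against 6.14% and 1.54% of all genes. Of 21 interferon ligands only Ifnb1 had enough counts to be tested, with 28, 25, 38, 14 and 22 counts in injury-only and 7, 9, 3, 2 and 8 counts in uninjured libraries of day 1 (1.88 ± 0.60, adjusted p = 0.0178). At day 7 it had 11, 7, 14, 16 and 10 counts in injury-only and 1, 0, 7 and 8 counts in uninjured libraries and was not called (1.65 ± 0.64, adjusted p = 0.128). Ifng had 0 counts in every injury-only library of both days. Of the receptor chains, Ifnar1 averaged 133 ± 14.1 CPM in injury-only and 111 ± 7.78 CPM in uninjured libraries of day 1 (SD, n = 5 each; 0.24 ± 0.09, adjusted p = 0.0461), and Ifnar2 averaged 160.2 ± 9.09 CPM in injury-only and 207 ± 22.4 CPM in uninjured libraries (-0.39 ± 0.09, adjusted p = 0.00186). At day 7 neither was called (Ifnar1 0.30 ± 0.17, Ifnar2 0.05 ± 0.10).

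Irf1, a transcription factor of interferon and cytokine responses, had 147, 144, 119, 106 and 164 CPM in injury-only libraries of day 1, against 395, 432, 426, 437 and 429 CPM in uninjured libraries (-1.67 ± 0.16, adjusted p = 4.81e-08). Every injured library was far below the uninjured range. Ikbke, a kinase that activates IRF factors, had 26.04, 26.5, 49.05, 26.1 and 17.1 CPM in injury-only libraries of day 1, against 0, 1.16, 0.268, 0.5599 and 0.431 CPM in uninjured libraries (5.80 ± 0.61, adjusted p = 2.26e-07), and 77.5, 9.61, 6.604, 12.1 and 11.2 CPM against 0.317, 0.781, 0.152 and 0.225 CPM in the same groups of day 7 (5.99 ± 0.83, adjusted p = 1.17e-04). One injury-only library of day 7 held most of that group's Ikbke.

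Of the 12 GTPases known best as targets of interferon gamma, 6 of 10 tested fell at day 1 and 0 rose, with a median of -0.88. Among them were Irgm1 (-0.70 ± 0.10), Irgm2 (-1.07 ± 0.16) and Gbp9 (-1.29 ± 0.21). At day 7, 2 of 12 rose, Irgm1 (0.83 ± 0.19) and Gbp6 (2.60 ± 0.77). Of 42 further interferon-induced genes tested, 11 rose and 6 fell at day 1, and 20 rose and 0 fell at day 7. For comparison, 18.5% of all genes rose and 15.3% fell at day 1, and 6.14% rose and 1.54% fell at day 7. The share of the 42 genes that fell at day 1 was close to that of all genes. Cxcl10, a chemokine that attracts T cells, rose on both days (1.30 ± 0.19 at day 1 and 1.51 ± 0.28 at day 7), as did Oasl1, an OAS-like gene (3.12 ± 0.58 and 2.48 ± 0.37). Ifi209 rose at day 7 (2.09 ± 0.30). Tmem173 (STING), the adaptor of DNA sensing, was the only gene of the list that fell at day 7 (-0.47 ± 0.12, adjusted p = 0.0173).

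**Figure D4:**
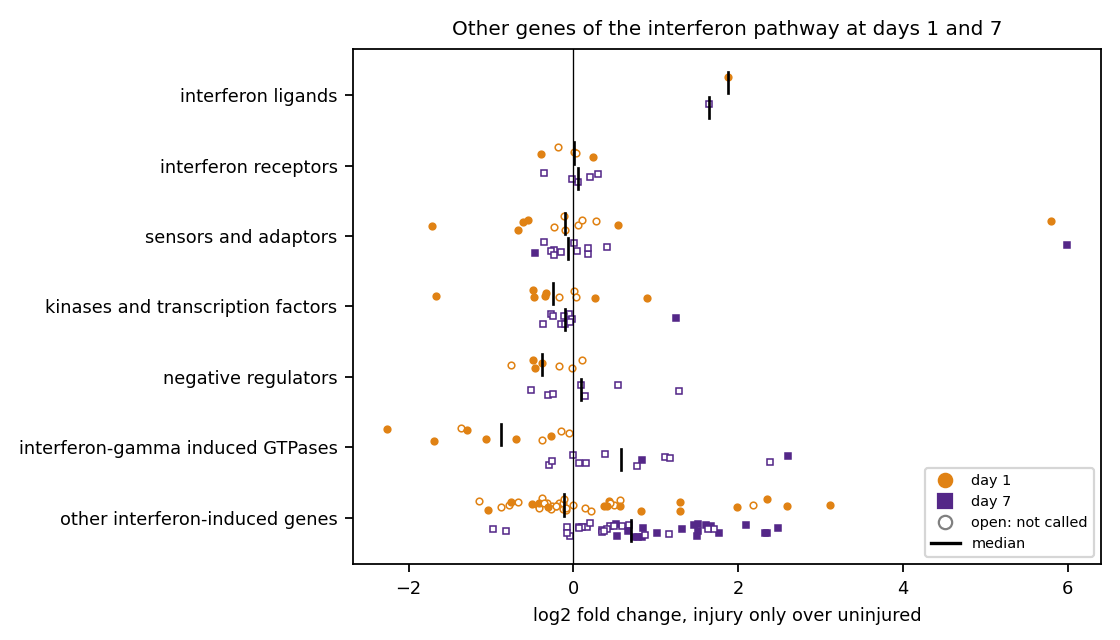
Log2 fold change of injury-only over uninjured microglia for the tested genes among 114 interferon pathway genes, in rows by role, at day 1 (orange circles) and day 7 (purple squares); filled symbols passed an adjusted p under 0.05 and black lines are row medians. The median of the gamma-induced GTPases is -0.88 at day 1 and 0.58 at day 7, and Ikbke is the point near 6 on both days.

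At day 14, 0 members were called between injury-only and uninjured libraries, and 0% of 14354 genes. In edgeR's quasi-likelihood test 1 member and 1963 of 14354 genes had an unadjusted p under 0.05, and DESeq2 called 0 members. That member was Ifitm3, with 61.7, 73.6 and 96.6 CPM in injury-only libraries, against 103, 26.5 and 1804 CPM in uninjured libraries (-3.08 ± 1.08, adjusted p = 0.321). Ifi27l2a had 40.9, 53.2 and 58.4 CPM in injury-only and 69.3, 12.7 and 388 CPM in uninjured libraries. Slfn5 had 24.1, 13.3 and 27.2 CPM in injury-only and 32.6, 5.31 and 139.6 CPM in uninjured libraries. In Ifitm3 and Ifi27l2a uninjured library 2 was below the injured range and libraries 1 and 3 were above it. Without uninjured library 3, 0 members and 0 genes were called. Without uninjured library 1, 2 members were called, Slfn8 higher and Ifitm3 lower in injury-only libraries, against 12.2% of 15061 genes in either direction.

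At day 30, 0 members and 0% of 14082 genes were called between injury-only and uninjured libraries. The quasi-likelihood test gave 3 members and 639 of 14082 genes an unadjusted p under 0.05, and DESeq2 called 0 members. Ifit1 had 3.48, 5.48, 4.05 and 4.75 CPM in injury-only and 3.87, 1.601, 2.77 and 1.098 CPM in uninjured libraries (0.94 ± 0.37). Rsad2 had 6.08, 7.204, 9.39 and 5.06 CPM in injury-only and 6.51, 2.402, 2.06 and 3.48 CPM in uninjured libraries of day 30 (0.93 ± 0.38). Ifi204 had 17.5, 16.96, 21.1 and 13.2 CPM in injury-only and 15.7, 10.3, 6.47 and 9.21 CPM in uninjured libraries (0.72 ± 0.31). These members had the smallest p, and the groups overlapped in each. A fold change above 0 was found in 32 members, with a median of 0.16, and in 50.9% of all genes. At day 60, 0 of 38 tested members were called between injury-only and uninjured libraries, with 2 at an unadjusted p under 0.05 and 0 called by DESeq2, while 0.0416% of genes were called higher. An unadjusted p under 0.05 was found for 418 of 12033 genes. The members' median was -0.14. Ifit2 had 7.39, 0.0992 and 0.132 CPM in injury-only and 15.5, 11.2 and 6.34 CPM in uninjured libraries (-2.15 ± 0.92, adjusted p = 1), and it was called lower once injury-only library 2 was left out. Ifi44 had 0.176, 2.68 and 0 CPM in injury-only libraries and was at 0 in all 3 uninjured libraries, so no fold change is given (adjusted p = 1). One injury-only library held most of that group's Ifi44. Lgals3bp of day 60 had 383, 336 and 641 CPM in injury-only and 322, 324 and 341 CPM in uninjured libraries (0.41 ± 0.21).

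The difference from day 7 was tested as well, with the day 7 libraries shared by both tests. The injury effect at day 30 was smaller than at day 7 in 19 of the 39 genes and larger in 0, against 0.29% and 0.0658% of 15193 genes. At day 60 it was smaller than at day 7 in 17 and larger in 0, against 0.224% and 0.0396% of 15159 genes. Day 60 libraries were of a later year than those of day 7, so time and library year cannot be told apart there. Ifi27l2a differed by -3.55 ± 0.42, adjusted p = 1.30e-05 at day 30 and by -3.78 ± 0.48, adjusted p = 8.85e-05 at day 60. Lgals3bp differed by -2.03 ± 0.27 at day 30 and -1.94 ± 0.28 at day 60, and Zbp1 by -3.11 ± 0.55 and -3.95 ± 0.66. Without uninjured library 1 of day 30 the count at day 30 was 11, with 0.154% of genes called. Without uninjured library 4 of day 60 the count at day 60 was 11, with 0.156% of genes called.

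Clodronate was set against vehicle to see what monocyte depletion changes in injured animals. No member was called at day 1, 7, 14, 30 or 60. At day 7, Oas2 had 6.92, 8.14, 5.84, 4.82 and 5.12 CPM in clodronate libraries, against 11.6, 10.4, 8.801 and 24.6 CPM in vehicle libraries (-1.23 ± 0.33, adjusted p = 0.0867). Trim30a, a TRIM protein that dampens inflammatory signalling in the mouse, had 55.6, 58.6, 54.4, 50.5 and 52.6 CPM in clodronate libraries, against 65.2, 60.3, 107 and 114 CPM in vehicle libraries (-0.68 ± 0.18, adjusted p = 0.0912). In both genes, as in Parp14, every clodronate library was below every vehicle library; 1.12% of all genes had this pattern, and 3.06% the opposite one, which 0 members had. Mx1 had 15.5, 15.1, 13.1, 12.3 and 10.8 CPM in clodronate and 17.5, 14.5, 23.5 and 28.9 CPM in vehicle libraries (-0.66 ± 0.18, adjusted p = 0.101).

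Across the 39 genes at day 7, 32 had a fold change below 0 in clodronate against vehicle libraries, with a median of -0.33, while 49.4% of all genes were above 0. An unadjusted p under 0.05 was found for 13 members and for 1877 of 14278 genes, and 0.455% of genes were called higher and 0.119% lower. DESeq2 called 2 members lower, Oas2 and Trim30a, against 2.9% of genes in either direction. Without the shallow vehicle library the quasi-likelihood test again called 0. Ifi27l2a had 104, 81.95, 43.3, 40.1 and 47.05 CPM in clodronate and 90.3, 69.8, 112 and 184 CPM in vehicle libraries, and the groups overlapped. The module mean was 5.44, 5.05, 4.88, 4.73 and 4.78 in clodronate and 5.15, 5.02, 4.79 and 5.83 in vehicle libraries, which overlapped too. Endothelial and mural markers, all 9 above 0, summed to 682 to 1361 CPM in clodronate and 184 to 553 CPM in vehicle libraries of day 7; their part in these values was not tested.

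At day 1 the direction between clodronate and vehicle differed by library year. The module mean averaged 4.00 ± 0.21 in clodronate and 4.21 ± 0.03 in vehicle libraries of the earlier year (SD, n = 3 and 2), and 4.17 ± 0.09 in clodronate and 3.82 ± 0.27 in vehicle libraries of the later year (SD, n = 3 and 2). The members' median log2 fold change was -0.11 within the earlier year and 0.20 within the later year, and 0 members were called in either. Over both years 0 members were called, with 5 at an unadjusted p under 0.05 and 0 called by DESeq2, against 0.152% of genes higher and 0.0344% lower. Of 14516 genes, 1212 had an unadjusted p under 0.05. Ifi204 had 32.9, 38.5 and 55.7 CPM in clodronate and 27.7 and 37.3 CPM in vehicle libraries of the earlier year. In the later year it had 42.8, 50.4 and 31.4 CPM in clodronate and 21.3 and 25.5 CPM in vehicle libraries (0.58 ± 0.18, adjusted p = 0.255 over both years). Its clodronate libraries were above its vehicle libraries in the later year and overlapped them in the earlier one. Lgals3bp had 379.5, 351 and 446 CPM in clodronate and 332 and 383 CPM in vehicle libraries of the earlier year, and 532, 476 and 429 CPM and 314 and 316 CPM in the same groups of the later year (0.35 ± 0.11, adjusted p = 0.268 over both years). Ifi27l2a had 17.04, 10.7 and 20.4 CPM in clodronate and 13.2 and 14.8 CPM in vehicle libraries of the earlier year, and 46.1, 19.7 and 40.9 CPM and 13.5 and 18.2 CPM in those of the later year (0.66 ± 0.24, adjusted p = 0.364). Over both years the groups overlapped in each of the 3 genes.

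At day 14, 0 members and 0% of genes were called between clodronate and vehicle. At an unadjusted p under 0.05 there were 785 of 14354 genes and 1 member. That gene was Ifi44, an induced gene of low level, with 0.4196, 1.43, 0.884, 0.464 and 1.12 CPM in clodronate and 2.29, 2.13, 5.12, 2.58 and 2.49 CPM in vehicle libraries (-1.75 ± 0.41, adjusted p = 0.827); DESeq2 called it lower. Every clodronate library was below every vehicle library. This pattern was found in 1 member and the opposite one in 0, and their shares over all genes are not given here. Gbp2, an interferon-induced GTPase, had 14.8, 105, 87.6, 53.4 and 51.9 CPM in clodronate and 56.9, 13.5, 17.4, 21.3 and 35.9 CPM in vehicle libraries of day 14 (1.10 ± 0.54), and Parp14 had 18.9, 22.1, 21.8, 42.98 and 39.97 CPM in clodronate and 17.03, 19.3, 23.1, 17.4 and 11.6 CPM in vehicle libraries (0.71 ± 0.37). In both genes clodronate library 1 was the lowest of its group. The module mean of day 14 was 3.40, 5.46, 5.36, 4.84 and 4.89 in clodronate and 5.16, 4.46, 4.89, 4.67 and 5.13 in vehicle libraries, so clodronate library 1, one of the pair whose markers stood apart, was the lowest of all 10. The median sum of the monocyte markers was 889.4 CPM in clodronate and 109.3 CPM in vehicle libraries. Leaving out any 1 of the 10 libraries gave 0 called members and 0 called genes. The part of these libraries and of the transcripts on the monocyte list in the comparison was not tested.

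At day 30, 0 members and 0% of genes were called, with 6 members at an unadjusted p under 0.05 and 0 called by DESeq2. Of 14082 genes, 1199 had an unadjusted p under 0.05. Bst2 had 77.8, 85.3, 75.3 and 110.3 CPM in clodronate and 76.03, 63.01, 76.5 and 69.8 CPM in vehicle libraries of day 30 (0.29 ± 0.12, adjusted p = 0.531). Slfn8 had 26.8, 22.1, 30.6 and 28.1 CPM in clodronate and 24.2, 37.7, 38.2 and 40.9 CPM in vehicle libraries (-0.38 ± 0.15), and Gbp3 had 42.5, 31.3, 40.2 and 78.3 CPM in clodronate and 28.1, 35.96, 37.8 and 39.8 CPM in vehicle libraries (0.45 ± 0.21). The groups overlapped in all 3 genes.

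At day 60, 0 members and 0% of genes were called, and DESeq2 called 0 members. At an unadjusted p under 0.05 there were 789 of 12033 genes and 1 member. That gene was Usp18, with 33.3, 24.8, 28.9 and 20.99 CPM in clodronate and 13.3, 14.9, 16.5 and 6.25 CPM in vehicle libraries, which did not overlap (1.06 ± 0.32, adjusted p = 0.549). Rtp4 had 13.4, 17.1, 16.3 and 13.5 CPM in clodronate and 4.43, 11.6, 9.03 and 8.14 CPM in vehicle libraries, also without overlap (0.80 ± 0.40). Ifi44 had 1.69, 0.451, 0.121 and 0.163 CPM in clodronate and 4.43, 2.89, 2.55 and 2.84 CPM in vehicle libraries, where every clodronate library was below every vehicle library (-2.31 ± 1.33). Thus 2 members lay fully above and 1 fully below, against 3.07% and 1.28% of all genes. Lgals3bp had 333, 412, 382 and 421 CPM in clodronate and 400.5, 467, 623 and 418 CPM in vehicle libraries, which overlapped (-0.34 ± 0.18). The module mean of day 60 was 3.74, 3.76, 3.96 and 3.78 in clodronate and 3.69, 3.39, 3.57 and 3.54 in vehicle libraries, so each clodronate library was above each vehicle library under this scaling. With DESeq2's size factors the groups overlapped, with 3.74 in clodronate library 1 and 3.78 in vehicle library 1. The clodronate effect at day 60 against that at day 7 gave 0 called members and 0% of genes, with 8 members at an unadjusted p under 0.05 and 0 called by DESeq2. Of 15159 genes, 1268 had an unadjusted p under 0.05. The libraries of day 60 were of a later year than those of day 7.

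Vehicle against injury only addresses the liposomes themselves, and no member was called at day 1, 7, 30 or 60. Members at an unadjusted p under 0.05 numbered 2, 0, 1 and 2 in that order, and DESeq2 called 0 on each day. Genes at an unadjusted p under 0.05 numbered 2057 of 14516, 1730 of 14278, 1212 of 14082 and 695 of 12033. Of all genes the quasi-likelihood test called 0.207% higher and 0.668% lower at day 1, 0.196% and 0.14% at day 7, 0% and 0% at day 30, and 0% and 0.00831% at day 60. At day 1 the members of smallest p were Parp14, with 21.1 and 24.1 CPM in vehicle libraries of the earlier year, 15.9 and 29.9 CPM in those of the later year and 11.2, 11.6, 18.8, 16.3 and 7.397 CPM in injury-only libraries (0.83 ± 0.28), Slfn8 (0.45 ± 0.16) and Ifit2 (0.49 ± 0.24). Slfn8 had 39.7 and 43.98 CPM in vehicle libraries of the earlier year, 20.6 and 26.8 CPM in those of the later year and 27.5, 24.1, 30.7, 36.5 and 25.4 CPM in injury-only libraries. Ifit2 had 22.9 and 9.801 CPM in vehicle libraries of the earlier year, 15.6 and 22.3 CPM in those of the later year and 12.3, 9.61, 11.5, 11.4 and 10.8 CPM in injury-only libraries. The groups overlapped in each gene.

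At day 7 the members' median log2 fold change in vehicle against injury-only libraries was 0.05. Trim30a had 65.2, 60.3, 107 and 114 CPM in vehicle and 54.9, 92.4, 66.04, 65.98 and 55.6 CPM in injury-only libraries (0.34 ± 0.18), and Slfn8 had 36.02, 42.9, 33.2 and 65.1 CPM in vehicle and 45.8, 65.7, 42.3, 55.1 and 68.2 CPM in injury-only libraries (-0.32 ± 0.18). Irf9 had 90.1, 92.6, 44.98 and 116 CPM in vehicle and 93.4, 109, 105, 106 and 104 CPM in injury-only libraries (-0.25 ± 0.16). None of the 3 separated the groups. Cmpk2 of day 30 had 11.2, 7.15, 6.65 and 5.08 CPM in vehicle and 2.92, 4.02, 4.89 and 4.35 CPM in injury-only libraries, which did not overlap (0.91 ± 0.32, adjusted p = 0.476). Gbp7 of day 30 had 54.7, 69.2, 65.3 and 82.9 CPM in vehicle and 58.5, 60.4, 60.2 and 52.6 CPM in injury-only libraries (0.23 ± 0.11), and Dhx58 had 22.2, 18.4, 26.7 and 18.6 CPM in vehicle and 24.6, 22.3, 34.7 and 21.03 CPM in injury-only libraries (-0.25 ± 0.16). These groups overlapped. Ifit2 of day 60 had 19.5, 10.6, 9.81 and 17.99 CPM in vehicle and 7.39, 0.0992 and 0.132 CPM in injury-only libraries (2.53 ± 0.90, adjusted p = 0.67), and it was called higher without injury-only library 2. Trim30a of day 60 had 51.4, 49.6, 36.5 and 36.7 CPM in vehicle and 35.4, 32.9 and 15.3 CPM in injury-only libraries, which did not overlap (0.68 ± 0.31). Xaf1 had 13.3, 23.1, 22.8 and 25.8 CPM in vehicle and 10.4, 8.43 and 20.3 CPM in injury-only libraries, which did (0.77 ± 0.37). Fully above the injury-only libraries lay 1 member at day 30 and 2 at day 60, and 0 lay fully below on either day. The shares of all genes with these patterns are not given here.

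The liposome groups were also set against the uninjured libraries, which they share with the injury-only comparison. At day 7, 31 members were higher and 0 lower in clodronate libraries, against 12.8% and 8.21% of genes. In vehicle libraries of day 7 the counts were 33 higher and 0 lower, against 8.89% and 4.95%. Lgals3bp had 836, 798, 692, 563 and 673 CPM in clodronate and 774, 784, 815 and 1391 CPM in vehicle libraries of day 7, with log2 fold changes over uninjured of 1.90 ± 0.17 and 2.33 ± 0.18. Zbp1 had 20.6, 13.5, 11.2, 8.41 and 13.02 CPM in clodronate and 14.04, 12.2, 10.8 and 27.1 CPM in vehicle libraries, with log2 fold changes over uninjured of 3.21 ± 0.29 and 3.54 ± 0.30. Slfn2 had 159, 145, 138, 116 and 116 CPM in clodronate and 150.3, 138, 95.8 and 203 CPM in vehicle libraries, with log2 fold changes of 1.56 ± 0.15 and 1.72 ± 0.16. Every liposome-treated library was above every uninjured one in each of these genes. This held for 31 members in clodronate and 32 in vehicle libraries, and the share of all genes is not given here. Fully below lay 1 and 0 members. In vehicle libraries Ifi27l2a, whose values are given above, had a log2 fold change of 3.68 ± 0.32 over uninjured.

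At day 1, 15 members were higher and 0 lower in clodronate than in uninjured libraries, against 18.9% and 15.2% of genes. Ifi204, whose values are given above for both years, had a log2 fold change of 2.10 ± 0.19, adjusted p = 5.35e-08 over uninjured. That of Lgals3bp was 0.99 ± 0.11, adjusted p = 9.16e-07. Slfn2 had 178, 192 and 324 CPM in clodronate libraries of the earlier year and 107, 273 and 86.9 CPM in those of the later year, with a log2 fold change of 2.18 ± 0.27, adjusted p = 2.04e-06. In all 3 genes every clodronate library of the earlier year was above every uninjured one. The share of all genes with this pattern is not given here. The later year had no uninjured libraries, so its clodronate values have no reference of their own year.

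At day 30, 0 members and 0% of genes were called between vehicle and uninjured libraries, with 9 members at an unadjusted p under 0.05. The same was found for 1634 of 14082 genes. Ifit1 had 9.26, 7.29, 4.03 and 3.900 CPM in vehicle libraries of day 30, all above the uninjured values (1.41 ± 0.37, adjusted p = 0.174), and DESeq2, and the fit without uninjured library 1, called it higher. Ifi204 had 18.02, 17.8, 22.8 and 17.4 CPM in vehicle libraries, all above the uninjured values (0.86 ± 0.31). Of the members 5 lay fully above and 0 fully below, and the share of all genes with this pattern is not given here. Sp100 had 46.3, 38.4, 33.3 and 27.3 CPM in vehicle and 34.2, 23.8, 26.4 and 24.1 CPM in uninjured libraries, which overlapped (0.43 ± 0.17).

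At day 60, 0 members were called in clodronate and 0 in vehicle against uninjured libraries, with 0 and 4 at an unadjusted p under 0.05 and 0 and 0 called by DESeq2. An unadjusted p under 0.05 was found for 557 and 596 of 12033 genes in that order. Of all genes 0.141% and 0.183% were called higher and 0.0166% and 0.0831% lower in these comparisons. Lgals3bp had 400.5, 467, 623 and 418 CPM in vehicle libraries of day 60, all above the uninjured values (0.53 ± 0.20, adjusted p = 0.788). Ifi44, at 0 in every uninjured library and with the values given above in both liposome groups, had the smallest p of the members in each comparison (adjusted p = 0.999 for clodronate and 0.587 for vehicle). Ifit1 had 3.54, 1.93, 2.75 and 1.14 CPM in vehicle and 1.94, 11.8 and 7.72 CPM in uninjured libraries, which overlapped (-1.67 ± 0.75). Usp18 had 18.3, 15.3 and 15.4 CPM in uninjured libraries, all below the clodronate values (0.68 ± 0.34), and Oas1a had 13.5, 11.7, 22.3 and 13.7 CPM in clodronate and 3.88, 13.2 and 7.99 CPM in uninjured libraries (0.83 ± 0.47). In each of these comparisons 2 members lay fully above the uninjured libraries and 0 fully below. The shares of all genes with these patterns are not given here.

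**Figure D5:**
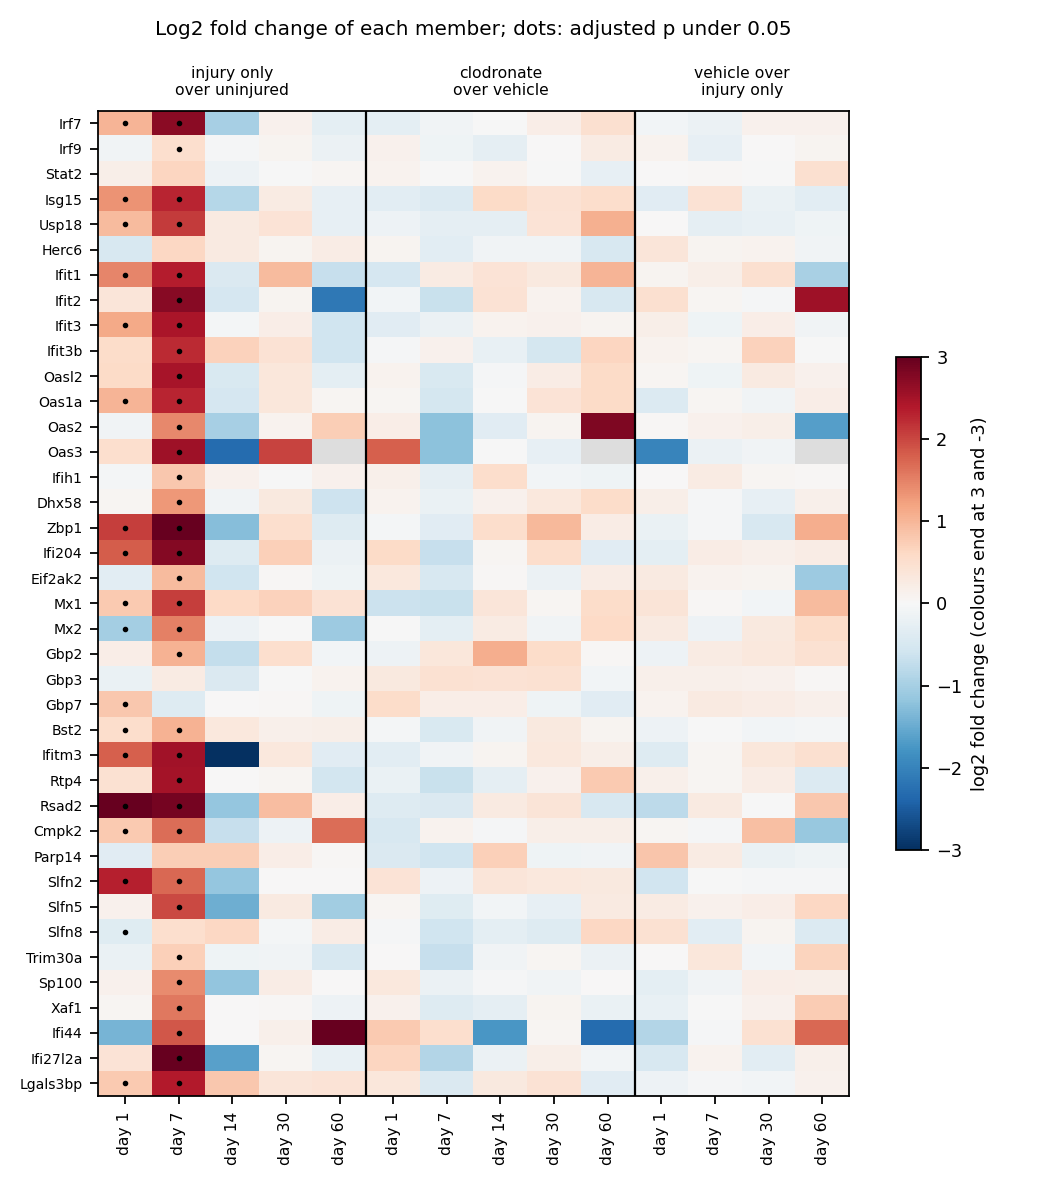
Log2 fold change (colour, limits -3 and 3) of each of the 39 genes in injury only over uninjured, clodronate over vehicle and vehicle over injury only, by day; dots mark an adjusted p under 0.05 and grey cells were not tested. Dots stand in the columns of injury only over uninjured at day 1 (18 genes) and day 7 (33 genes), and in no other column.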

How the data were processed

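RNA of sorted microglia was extracted with the PicoPure kit, amplified by PCR and made into Nextera XT libraries, per the labels' protocols. Reads were aligned with STAR to GRCm38 (mm10), per the submitters' processing notes. The deposited files hold raw whole-number counts per Ensembl gene with the 5 summary lines of HTSeq, per the file headers and line names; no source used here gives versions or strand use. The run summary deposited by the authors gives the percent of reads uniquely aligned and duplicated per library, and 1 of its lines matched no sample. The summary lines stayed out of totals and tests; reads with no feature were at a median of 5.07% of counts.

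Counts were tested with edgeR 4.0.16 in R 4.3.3 (TMM, filterByExpr with a minimum count of 10 and a total of 15, quasi-likelihood F test, Benjamini-Hochberg adjustment over all genes tested), in 1 fit per day of all 4 treatments, with library year as a covariate at day 1. Effect differences were fitted over both days. CPM are scaled over all 84 libraries, and SE is the log2 fold change over the square root of F. The tests were tried on simulated data. Alternatives were DESeq2 1.42.0 (size factors, and its Wald test), no filter, the compared groups alone, a replicate block, single years, and leaving out each library. No label pairs libraries of different groups. Same-numbered libraries correlated above a cutoff of 0.1 in every pair only for vehicle against injury only at day 30 (0.109 to 0.219, 4 pairs). No 2 libraries of a group agreed within sampling noise. One gene of the pathway list is counted with it, but its own values are not reported here. The members, gene lists and tests were chosen with earlier results of these data known. All 39 members could be named; every library's values are given for called members in order of adjusted p (the first 12 for injury only against uninjured, the first 3 for liposome groups against uninjured), for the 3 of smallest p where none was called, and for others where a pattern rests on them.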

Additional observations from a re-analysis of the deposited data

Results flagged for a closer look

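A check for single libraries far from the rest of their group, over 147 groups of values, flagged 11, and chance flags about 1 in 20 groups. In clodronate libraries of day 60, 1 library had a module mean of 3.959, above the other 3. In clodronate libraries of day 7, 1 library had 70.74 CPM of Ifit1. In vehicle libraries of day 7, library 5 stood far above the others with 1391 CPM of Lgals3bp and 101.0 CPM of Ifi204. In vehicle libraries, 1 of day 14 had 5.123 CPM of Ifi44 and 1 of day 30 had 22.78 CPM of Ifi204, each the highest of its group. In uninjured libraries of day 1, the values far from the rest were the lowest of Slfn2 (45.31 CPM) and Ifit3 (7.404 CPM) and the highest of Zbp1 (2.39 CPM) and Ifit1 (7.236 CPM). In uninjured libraries of day 7 the lowest of Oasl2 (8.556 CPM) was flagged.

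The injury effect differed between days by its own test in 27 members for day 7 against day 1, in 17 for day 60 against day 7 and in 19 for day 30 against day 7. The libraries of day 60 were of a later year than those of day 7.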

How the results depend on the processing

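Of 193 called results of single members, 150 kept their direction and side of the threshold under every alternative and 0 reversed. Leaving out 1 library gave 16 to 19 called members for injury only against uninjured at day 1, among 4360 to 4719 called genes. At day 7 it gave 29 to 33, among 592 to 1069 called genes. The compared groups alone gave 34 members higher and 1 lower at day 7, with 11.5% of all genes called. Without the shallow vehicle library the fit of that day gave 34 higher and 0 lower, with 11.6% of all genes called. For clodronate against vehicle at day 1, no filter on low counts gave 4 members (Gbp7, Ifi204, Ifi27l2a and Slfn2), with 1.39% of all genes called. For vehicle against injury only at day 1 it gave 3 (Parp14, Rsad2 and Slfn2), with 3.06% of all genes called. For clodronate against vehicle at day 7, no filter gave 1 (Oas2), with 1.22% of all genes called, and DESeq2 gave 2, with 2.9%. Leaving out 1 library gave 0 to 1 (Trim30a, without vehicle library 2 or 3, with 2.43% and 0.574% of genes called). At day 14, injury only against uninjured gave 0 to 2 without 1 library, with 12.2% of genes called where it gave 2. It gave 10 without uninjured libraries 1 and 3 (15.5% of all genes), but library 1 was left out after its high interferon genes were seen and the 1 library kept was the lowest, so the choice set the direction and nothing rests on this count. On that day DESeq2 gave 1 for clodronate against vehicle, with 0.118% of genes called. For vehicle against uninjured at day 30, no filter gave 1, with 0.844% of genes called, and DESeq2 gave 1, with 1.34%. Leaving out 1 library gave 0 to 1, with 1.26% of genes called where it gave 1. At day 60, leaving out 1 library gave 0 to 1 for injury only against uninjured and for vehicle against injury only, where no filter gave 1 (Ifit2 each time). Of all genes 0.0471% and 0.0706% were called where leaving out 1 library gave 1, and 0.36% with no filter. For the difference of injury effects, leaving out 1 library gave 11 to 17 at day 60 against day 7 and 11 to 20 at day 30 against day 7, and the replicate block gave 12 in each. All genes called numbered 21 to 155 and 24 to 67 without 1 library, and the replicate block called 0.224% and 0.369% of genes. For the difference of clodronate effects, no filter gave 1 (Oas2), with 0.433% of genes called. With the replicate block, vehicle against injury only at day 30 kept 0 called members. It was the only comparison where every same-numbered pair correlated above 0.1, and no label says that these libraries are paired. The cause of these changes was not tested. Depth limits day 60 most, where a library held as few as 1109856 counts.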
